A study of Glycine max with 6 samples.

Results

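Transcript levels of 7 genes for the transport of nitrate, ammonium and peptides were followed in soybean root nodules grown with little or ample phosphate. These 7 are among 39712 genes that the deposited tables list in at least 1 library. They are GmNRT2 (Glyma.13G323800), an NRT3.1-like gene (Glyma.17G124900), an ammonium transporter 2-like gene, called AMT2-like here (Glyma.07G153800), an NRT1.5-like nitrate transporter gene (Glyma.09G237600), a peptide/nitrate transporter gene matched to Arabidopsis At3g54450 (Glyma.15G236100) and a pair of PTR2-like peptide transporter genes (Glyma.05G136300 and Glyma.08G148000). The names come from the protein matches that accompany the published list of genes differing between the treatments. The members were chosen from that list, that is, because their levels differed between these same libraries, so their LP and HP values are given as a description. Calls named for them below say only where a gene fell against the thresholds of the fit across all genes and are no test of the members. All plants were of soybean genotype YC03-3, were inoculated with rhizobium strain USDA110 and received nitrate and ammonium in the nutrient solution. The LP group had 25 μM KH2PO4 (3 libraries) and the HP group had 500 μM KH2PO4 (3 libraries). These concentrations are those of the study's methods, whereas the sample labels state 25 and 500 as mM. After 25 days, nodules larger than 3 mm were taken, and each library pooled nodules of 2 plants, so the spread between libraries is a spread between pools.

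As background, nitrate enters plant cells through a high-affinity system of NRT2 proteins, which in Arabidopsis need a small membrane-bound partner of the NRT3 (NAR2) family, and through proton-coupled carriers of the large NRT1/PTR family, whose members move nitrate, dipeptides or other solutes. Ammonium crosses membranes through AMT proteins. In a nodule, rhizobia reduce dinitrogen to ammonium, which plant cells take over and assimilate through glutamine synthetase, and nitrate supplied from outside is known to restrain nodulation and nitrogen fixation in legumes.

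Values are FPKM, that is, fragments per kilobase of gene model, scaled to the assigned fragments of each library. The totals of assigned fragments, recovered from the tables, were between 17716117 and 18909026 in the LP libraries and between 17930721 and 18688901 in the HP libraries. Over genes passing a minimum of 0.5 FPKM in 3 or more libraries, log2 values correlated between libraries at 0.967 to 0.977 within LP and at 0.966 to 0.975 within HP. The same correlations were 0.911 to 0.936 between LP and HP libraries. Summed levels of 4 genes taken as leghemoglobins, the defining transcripts of infected nodule cells, were between 77744 and 85345 FPKM at LP and between 72894 and 82024 FPKM at HP. This naming rests on general knowledge, since the sources at hand do not annotate these 4 IDs.

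Of the 7 transporter genes, 4 were higher and 3 were lower at LP by their mean. Higher were the NRT3.1-like, AMT2-like and both PTR2-like genes, and lower were GmNRT2, the NRT1.5-like and the peptide/nitrate transporter genes. In all 7, the LP values lay wholly above or wholly below the HP values, which also held for 38.2% of the genes listed in at least 1 library. A fit across all genes (limma on log2(FPKM + 0.1)) could test 6 of the 7. At an adjusted p of 0.05 and at least a 2-fold difference, 3 were called higher and 2 lower at LP, where 3.34% of the 31181 genes tested were called higher, 4.39% were called lower and 7.73% were called in either direction. Since the members come from a list built on this contrast, nothing is read from these counts and shares. GmNRT2 stayed below the minimum, and the NRT1.5-like gene, 1 of the 2 counted as lower, passed it through the HP libraries alone and so had to differ. The median log2 fold change of all genes tested was -0.18. Relative to that value, log2 fold changes were -2.61 for GmNRT2, -1.14 for NRT1.5-like and -1.57 for the peptide/nitrate gene. They were 1.07 for NRT3.1-like, 1.99 for AMT2-like, and 2.44 and 1.71 for the PTR2-like genes of chromosomes 5 and 8. The folds below are as fitted unless said otherwise. In bulk tissue, fewer cells of a type that carries a transcript and less RNA per cell cannot be told apart.

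**Figure D1:**
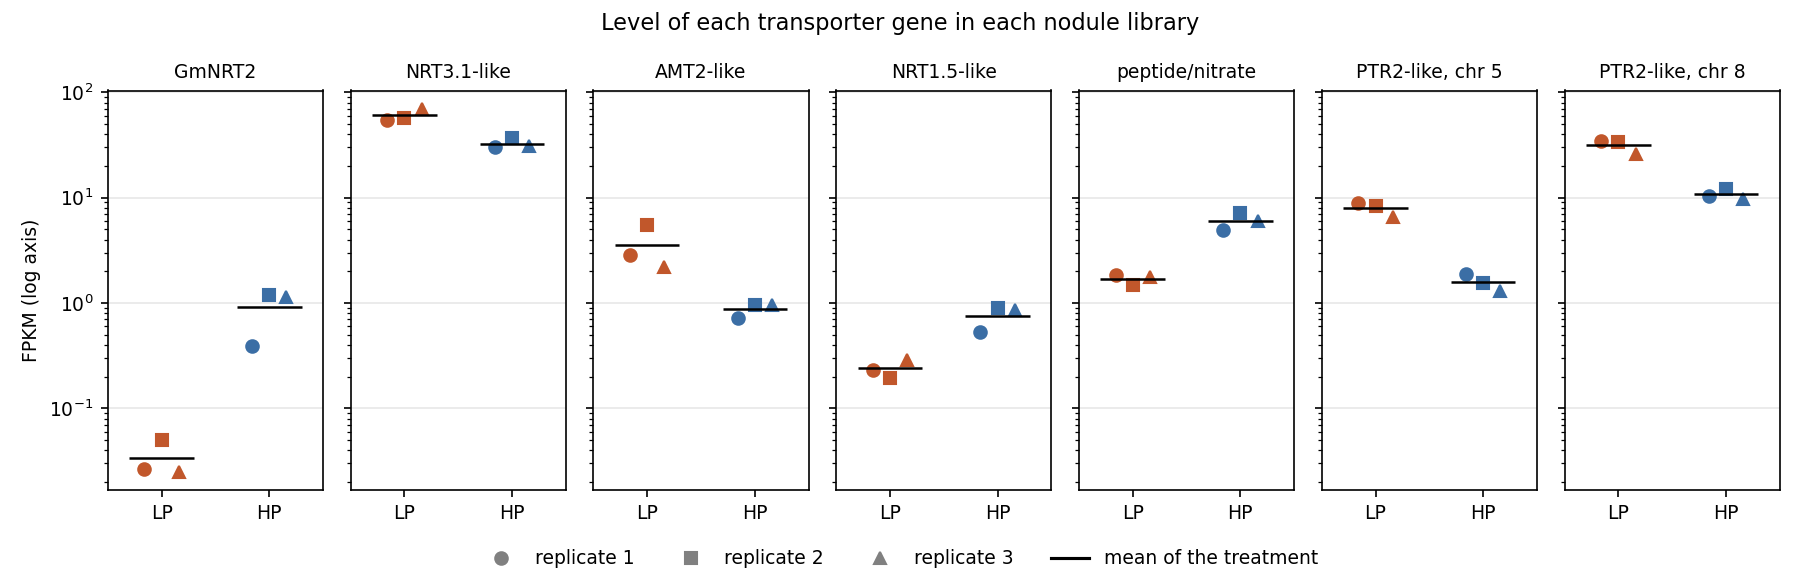
FPKM (log axis) of the 7 transporter genes in each of the 3 LP (left, orange) and 3 HP (right, blue) libraries, with symbols for the replicate number and a line at the mean of each treatment. No gene has overlapping LP and HP values, and the levels range from 0.0251 FPKM for GmNRT2 at LP to 69.97 FPKM for the NRT3.1-like gene at LP.

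GmNRT2, a high-affinity nitrate transporter, was nearly absent from LP nodules. The gene lies on chromosome 13 from 41826206 to 41828824 on the minus strand (assembly Wm82.a2.v1). It had 0.0268, 0.0505 and 0.0251 FPKM in LP replicates 1, 2 and 3, against 0.391, 1.19 and 1.14 FPKM in HP replicates 1, 2 and 3. These levels correspond to 1, 2 and 1 fragments at LP and to 15, 45 and 45 fragments at HP, on a gene model of 2109 bases. The recovered numbers are the smallest that fit, and doubling them would need a model longer than the 2619 bases the gene spans. The group means were 0.0341 ± 0.0142 FPKM at LP and 0.908 ± 0.448 FPKM at HP (SD, n = 3 each). Pooled over libraries, the level was 26.5 times lower at LP than at HP (95% counting interval 10.1 to 99.2), an interval that covers counting error only. The HP libraries were themselves unequal, since replicate 1 had 15 fragments and the others 45 each. On the log2(FPKM + 0.1) scale the difference was -2.79 (standard error 0.41) in a fit without a minimum, and -3.24 without HP replicate 1. In that fit it was called lower, as were 3.88% of the 39712 genes, and 6.85% were called in either direction. Its value depends on the added constant and was -0.85 with 1 added and -4.26 with 0.01 added.

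The NRT3.1-like gene, whose Arabidopsis counterpart is the partner that NRT2 transporters need for nitrate uptake, was by contrast the most abundant of the 7 in both treatments. It lies on chromosome 17 from 9957180 to 9958799 on the plus strand. It had 54.2, 57.6 and 69.97 FPKM in the LP libraries, against 30.1, 36.9 and 30.9 FPKM in the HP libraries. The means were 60.6 ± 8.31 FPKM at LP and 32.6 ± 3.70 FPKM at HP (SD, n = 3 each). Its LP libraries were all above its HP libraries, and the lowest LP value was 1.47 times the highest HP value. The log2 fold change was 0.89 (standard error 0.13), under the 2-fold threshold, and it is the member that was tested and not called. Relative to the median of all genes it was 1.07. Rescaling the libraries by median-of-ratios factors gave 1.07 and quantile normalization gave 1.01, and under both it was called higher. The NRT1.5-like gene, described below, was past the 2-fold threshold at -1.32. It lost its call without LP replicate 2 at -1.22, still past 2-fold, so there the adjusted p decided.

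The levels of these 2 genes can also be set against each other within a library, although nothing here measured whether their proteins work together. Within a library, the FPKM of the NRT3.1-like gene was 2024, 1141 and 2790 times that of GmNRT2 in LP replicates 1, 2 and 3, and 77.1, 31.0 and 27.0 times in HP replicates 1, 2 and 3. The LP ratios rest on 1 or 2 fragments of GmNRT2, and their counting intervals reach from 315 at the lowest to 110289 at the highest. These genes were chosen for differing between the treatments, here in opposite directions, so the gap between LP and HP ratios is a description.

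**Figure D2:**
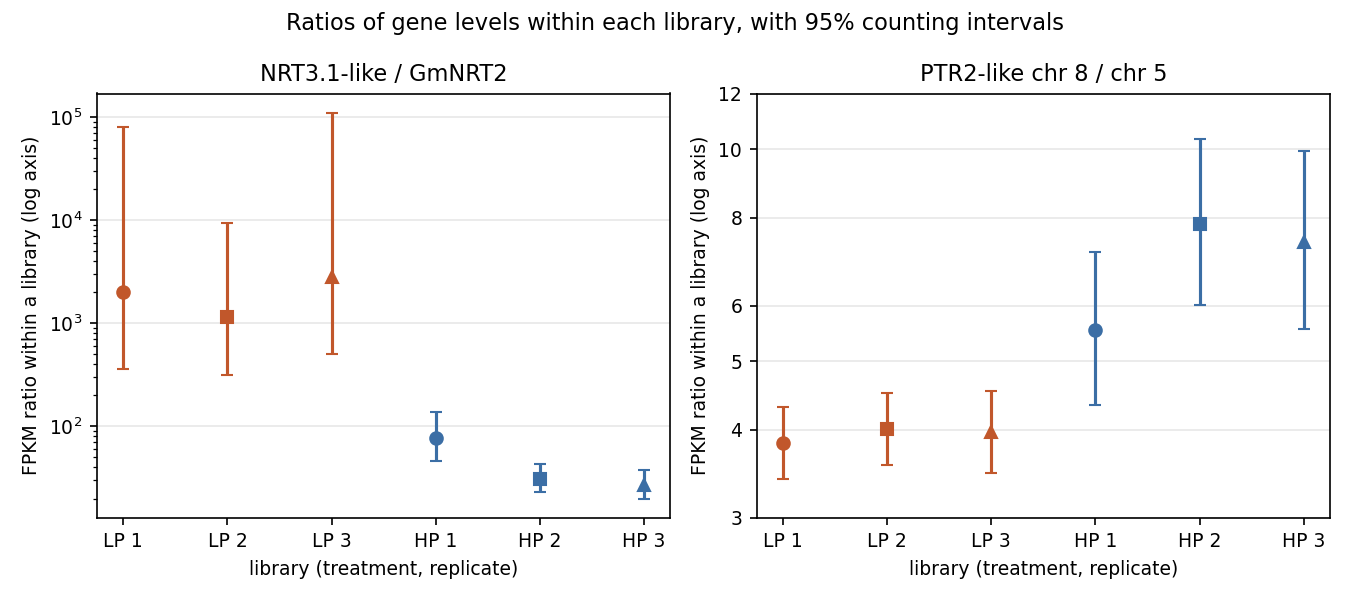
Ratio of FPKM values within each library (log axes) for the NRT3.1-like gene over GmNRT2 (left) and for the PTR2-like gene of chromosome 8 over that of chromosome 5 (right), with LP libraries in orange and HP libraries in blue. Bars are 95% counting intervals. In both panels the LP points lie apart from the HP points. On the left, LP is at 1141 or more against 77.1 or less, and on the right at 4.01 or less against 5.54 or more. The right bar of HP replicate 1 overlaps those of LP replicates 2 and 3.

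The AMT2-like gene, of a family of ammonium carriers, was higher in every LP library than in any HP library, and its LP libraries differed strongly from each other. It lies on chromosome 7 from 18789552 to 18794329 on the minus strand. Its levels were 2.88, 5.55 and 2.196 FPKM in LP replicates 1, 2 and 3, against 0.713, 0.965 and 0.949 FPKM in HP replicates 1, 2 and 3. In fragments these are 118, 241 and 96 at LP and 30, 40 and 41 at HP. LP replicate 2 thus stood above the other LP libraries, while the HP libraries lay close together. The means were 3.54 ± 1.77 FPKM at LP and 0.876 ± 0.141 FPKM at HP (SD, n = 3 each), a coefficient of variation of 49.99% at LP and 16.1% at HP. The log2 fold change was 1.80 (standard error 0.33), and it was 1.43 without LP replicate 2.

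The NRT1.5-like gene was scarce in both treatments and lower at LP. Its Arabidopsis namesake NRT1.5 passes nitrate into the root xylem. The soybean gene lies on chromosome 9 from 45932309 to 45938217 on the minus strand. It had 0.232, 0.195 and 0.290 FPKM in the LP libraries, against 0.528, 0.893 and 0.857 FPKM in the HP libraries, or 9, 8 and 12 fragments at LP and 21, 35 and 35 at HP. The groups did not overlap, and HP replicate 1 was the lowest HP library, as it was for GmNRT2. The ratio of pooled levels, LP over HP, was 0.315 (95% counting interval 0.20 to 0.483). The log2 fold change was -1.32 (standard error 0.33). With 1 added in place of 0.1 it was -0.50 and no longer called, and without LP replicate 2 it was -1.22 and no longer called.

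The peptide/nitrate transporter gene, an NRT1/PTR family member whose substrate is not given by the sources at hand, was also lower at LP. It lies on chromosome 15 from 44461425 to 44470198 on the plus strand. It had 1.85, 1.47 and 1.78 FPKM in the LP libraries, against 4.92, 7.19 and 5.94 FPKM in the HP libraries. The means were 1.70 ± 0.205 FPKM at LP and 6.02 ± 1.14 FPKM at HP (SD, n = 3 each). The lowest HP library was 2.66 times the highest LP library, and the log2 fold change was -1.76 (standard error 0.18). It is the best measured of the lower genes, with 215 fragments at LP and 754 at HP in all, where GmNRT2 had 4 and 105.

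Both PTR2-like genes were higher at LP. In Arabidopsis, PTR2 carries dipeptides and tripeptides together with protons. The gene of chromosome 5 lies from 32861694 to 32867327 and that of chromosome 8 from 11287298 to 11290903, both on the plus strand. The chromosome 5 gene had 8.96, 8.40 and 6.52 FPKM in the LP libraries, against 1.87, 1.56 and 1.31 FPKM in the HP libraries. The chromosome 8 gene had 34.3, 33.7 and 25.9 FPKM in the LP libraries, against 10.4, 12.2 and 9.67 FPKM in the HP libraries. In both genes LP replicate 3 was the lowest LP library and HP replicate 3 the lowest HP library, and neither gene had overlapping groups. The means of the chromosome 5 gene were 7.96 ± 1.28 FPKM at LP and 1.58 ± 0.283 FPKM at HP (SD, n = 3 each). Its log2 difference of 2.26 (standard error 0.18) was the largest increase among the 7. The means of the chromosome 8 gene were 31.3 ± 4.70 FPKM at LP and 10.8 ± 1.31 FPKM at HP (SD, n = 3 each), and the log2 difference was 1.53 (standard error 0.14).

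The more abundant copy of the pair was that of chromosome 8 in every library, and its lead was smaller at LP. The FPKM ratio of chromosome 8 over chromosome 5 was 3.83, 4.01 and 3.97 in LP replicates 1, 2 and 3, against 5.54, 7.82 and 7.38 in HP replicates 1, 2 and 3. It averaged 3.94 ± 0.0946 at LP and 6.92 ± 1.21 at HP (SD, n = 3 each). The LP ratios were nearly equal, and all lay below the HP ratios. The 2 genes share a description and may share reads, and how reads matching several genes were counted is not given in the sources used here.

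Only 1 other gene described as a nitrate, ammonium or peptide transporter appears in the part of the published list at hand, the PTR1-like gene Glyma.07G145900 on chromosome 7. It had 4.204, 3.42 and 2.21 FPKM in the LP libraries, against 1.55, 1.504 and 1.27 FPKM in the HP libraries, and was called higher at a log2 fold change of 1.09 (standard error 0.25). That call was lost without LP replicate 1, where the log2 fold change was 0.89, and without LP replicate 2, where it was 1.04. The PTR1-like gene and both PTR2-like genes were thus higher at LP, with LP replicate 3 the lowest LP library for each, whereas the peptide/nitrate transporter gene was lower at LP. The published list names only genes found to differ on these samples, so this shared direction is not independent evidence about peptide transporters.

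**Figure D3:**
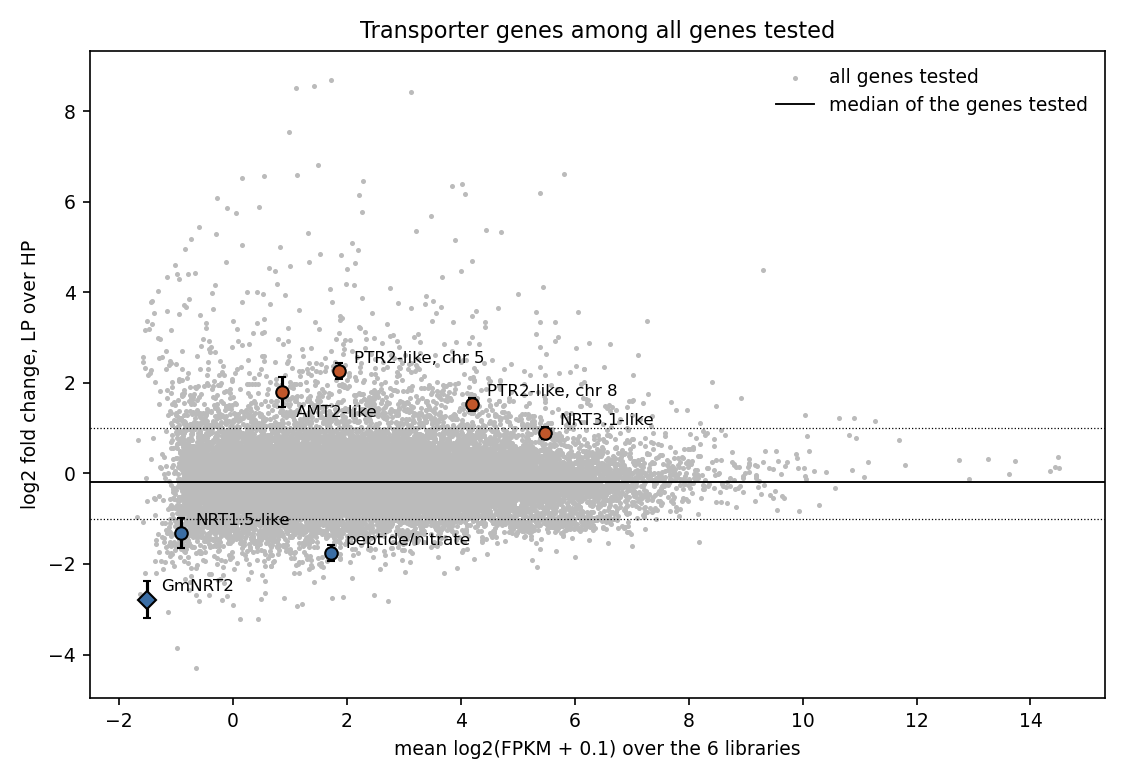
Log2 fold change of LP over HP against the mean log2(FPKM + 0.1) for all 31181 genes tested (grey) and the 7 transporter genes (orange for higher at LP, blue for lower at LP, bars for 1 standard error). The diamond marks GmNRT2, which was fitted without a minimum, the solid line is the median of -0.18, the dotted lines mark a 2-fold difference, and the NRT3.1-like gene at 0.89 lies just under the upper one.

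Ordered by level, the 7 genes covered a far wider range at LP. The NRT3.1-like gene stood 1776 times above GmNRT2 at LP by their means, whereas at HP it stood 43.0 times above the NRT1.5-like gene, the lowest there. The LP figure rests on 4 fragments of GmNRT2 in all. The members were chosen for differing on this contrast, so the wider range is a description. The LP order was the NRT3.1-like, chromosome 8 PTR2-like, chromosome 5 PTR2-like, AMT2-like, peptide/nitrate, NRT1.5-like and GmNRT2 genes, and no neighbours in that order had overlapping values. At HP, the peptide/nitrate gene came before the chromosome 5 PTR2-like gene. The 3 lowest genes at HP, GmNRT2 at 0.391 to 1.19 FPKM, AMT2-like at 0.713 to 0.965 FPKM and NRT1.5-like at 0.528 to 0.893 FPKM, did not differ beyond the spread of the libraries. At LP these 3 were spread out, with AMT2-like at 2.196 to 5.55 FPKM, NRT1.5-like at 0.195 to 0.290 FPKM and GmNRT2 at 0.0251 to 0.0505 FPKM. Within a library, AMT2-like was 12.4, 28.5 and 7.56 times NRT1.5-like at LP, against 1.35, 1.08 and 1.11 times at HP.

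Summed over the 7 genes, levels were 102.4, 106.9 and 106.7 FPKM in LP replicates 1, 2 and 3, against 48.9, 60.9 and 50.7 FPKM in HP replicates 1, 2 and 3. The LP sums agreed closely although single members did not. The NRT3.1-like gene made up 52.9% to 65.6% of the sum at LP and 60.6% to 61.5% at HP, and GmNRT2 was a minor part of it in every library. Among all genes listed, the mean of the NRT3.1-like gene was at the 97.0th percentile at LP and the 92.7th at HP. The mean of GmNRT2 was at the 6.24th percentile at LP and the 27.8th at HP.

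Within HP most members deviated the same way, and within LP they did not. HP replicate 1 was the lowest HP library for 5 of the 7 genes and HP replicate 2 the highest for 6. LP replicate 3 was the lowest LP library for 4 genes and the highest for 2, the NRT3.1-like and NRT1.5-like genes. The 4 include GmNRT2, which had 1 fragment in both LP replicate 1 and LP replicate 3. The median deviation of all genes tested was between -0.03 and 0.05 in each of the 6 libraries on the log2 scale. The largest deviations among the members were -0.91 for GmNRT2 in HP replicate 1 and 0.74 for AMT2-like in LP replicate 2. The within-treatment SD of log2 values was 0.50 for AMT2-like, above that of 90.3% of the genes tested, and 0.57 for GmNRT2. That of the NRT3.1-like gene was 0.18 and that of the chromosome 8 PTR2-like gene 0.20, against a median of 0.20 over the genes tested.

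**Figure D4:**
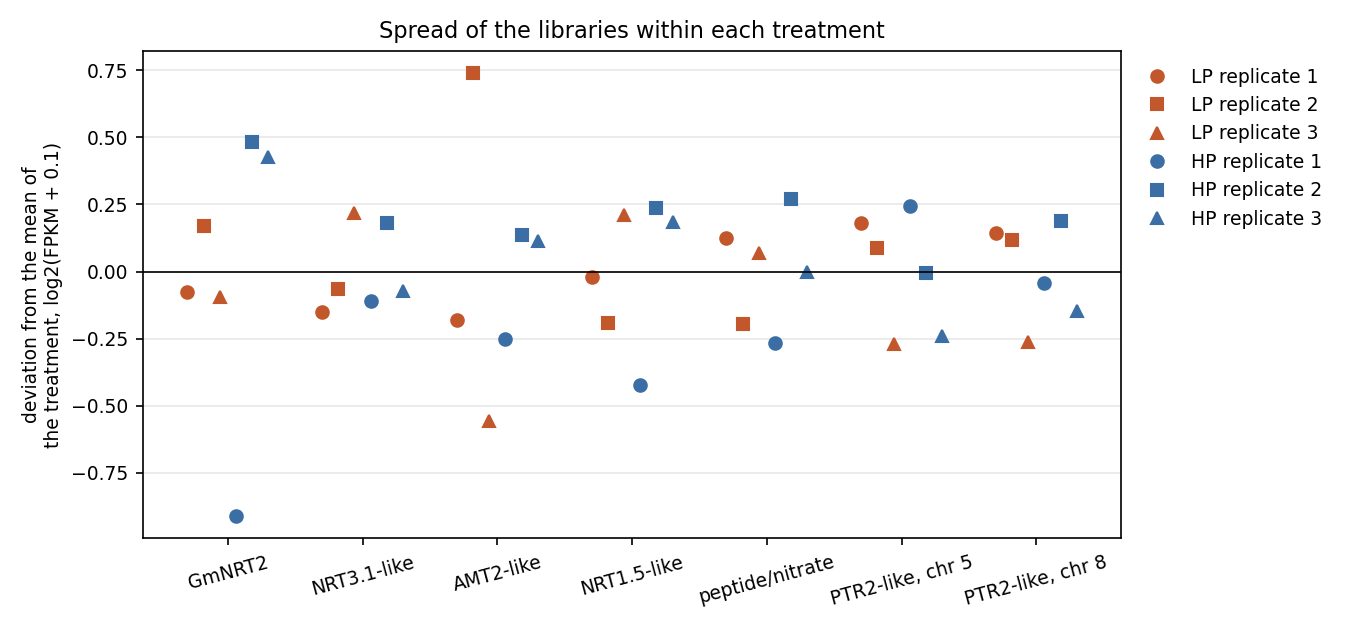
Deviation of each library from the mean of its treatment, on the log2(FPKM + 0.1) scale, for the 7 genes, with LP libraries in orange, HP libraries in blue and symbols for the replicate number. The points farthest from 0 are GmNRT2 in HP replicate 1 at -0.91 and AMT2-like in LP replicate 2 at 0.74.

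The genes whose log2 values over the 6 libraries ran most like that of GmNRT2, among 28142 genes tested with a mean of at least 1 FPKM, were Glyma.16G032500 (Pearson r = 0.999), Glyma.06G081400 (0.999) and a further gene at 0.998, none of them described in the sources at hand. Likeness here concerns shape and not size. At LP the shape of GmNRT2 rests on 1, 2 and 1 fragments, with FPKM values below the added 0.1. Glyma.06G081400 had 4.45, 4.75 and 4.49 FPKM in the LP libraries, against 6.005, 7.27 and 7.27 FPKM in the HP libraries, so it shares the low HP replicate 1 at a far smaller fold. Most like the NRT3.1-like gene were the undescribed Glyma.20G167900 (0.997), a gene described as a copper amino oxidase precursor, Glyma.17G019300 (0.996), and a YLS7-like gene, Glyma.15G105300 (0.996). Glyma.17G019300 had 57.5, 58.1 and 82.0 FPKM in the LP libraries, against 24.9, 30.7 and 26.6 FPKM in the HP libraries. With 6 libraries in 2 groups, such correlations are a description of these libraries.

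The genes next to the 7 transporters on their chromosomes were looked at once the values were known. Of the 14 nearest listed genes, at gaps of 136 to 124406 bases, 11 could be tested and 0 were called in limma, where 7.73% of all genes tested were called. Of these 11, 3 had an unadjusted p under 0.05, against 39.7% of all genes tested. Their log2 fold changes lay between -0.58 and 0.53. GmNRT2 has a neighbour 10764 bases away, Glyma.13G323600, which had a mean of 28.2 FPKM at LP and 27.8 FPKM at HP (log2 fold change 0.02, adjusted p = 0.891). The neighbour of the chromosome 8 PTR2-like gene at a gap of 136 bases, Glyma.08G148100, had 1.31 FPKM at LP and 1.95 FPKM at HP, a log2 fold change of -0.54 (adjusted p = 0.0550).

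Downstream of the transporters, nitrogen assimilation is represented in the part of the published list at hand by 4 genes. They are 1 for cytosolic glutamine synthetase, which fixes ammonium into glutamine, and 3 for asparagine synthetases, which make the amide asparagine. Of the 4, 3 were called higher at LP, 0 lower, and 1 reached the adjusted p at less than 2-fold, with a median log2 fold change of 1.09 beside -0.18 for all genes. Over all genes tested, 3.34% were called higher and 4.39% lower. They were listed because they differed on these samples. The largest fold among them was that of the asparagine synthetase gene Glyma.11G170300, a log2 fold change of 1.40 (standard error 0.14). The gene of highest level, the asparagine synthetase gene Glyma.18G061100, averaged 437 FPKM at LP and 237 FPKM at HP. It was the gene not called, at a log2 fold change of 0.90 (standard error 0.16). The remaining asparagine synthetase gene, Glyma.11G171400, was called higher at 1.12 (standard error 0.13). The glutamine synthetase gene Glyma.09G173200 had 84.5, 82.1 and 82.6 FPKM at LP, against 39.6, 39.1 and 40.6 FPKM at HP, on 1428 to 3180 fragments per library. Its within-treatment SD of log2 values, 0.03, was above that of only 0.13% of the genes tested. These values were far tighter than those of the AMT2-like gene, which rests on 30 to 241 fragments per library.

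**Figure D5:**
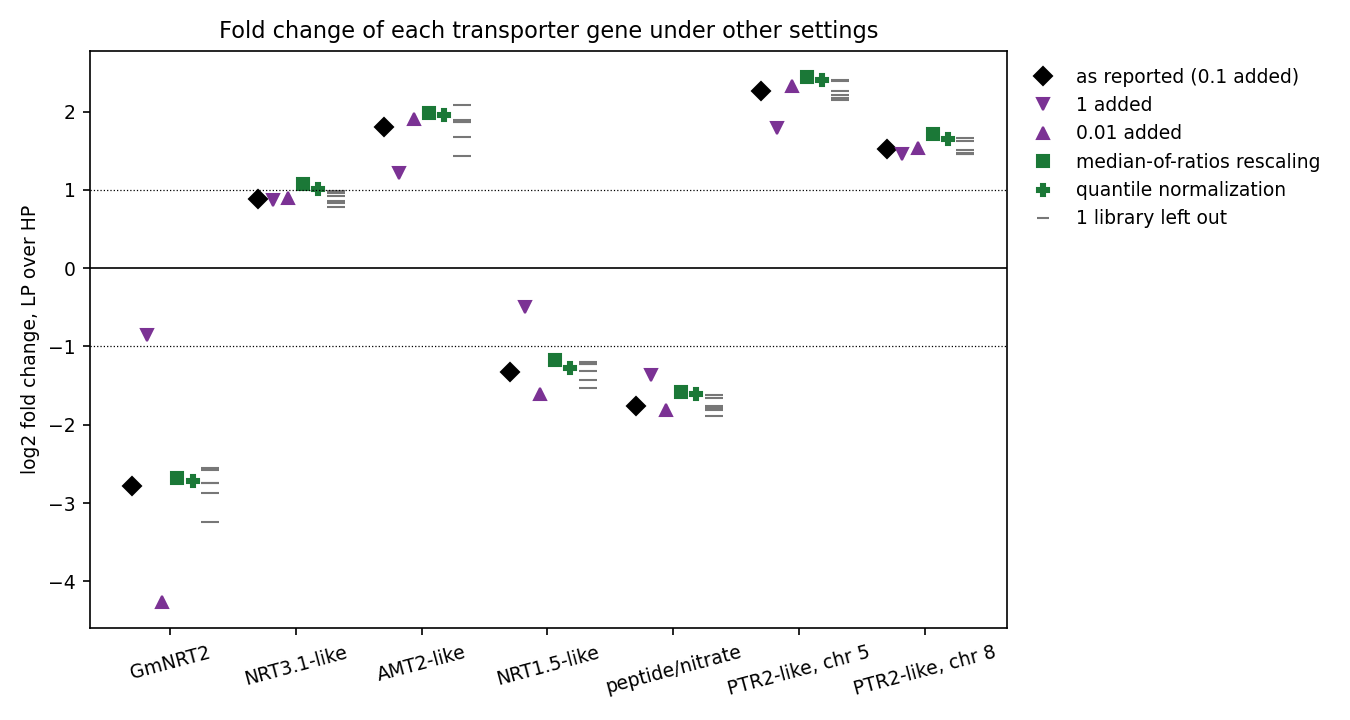
Log2 fold change of LP over HP for the 7 genes as reported (black), with another added constant (purple), after rescaling of the libraries (green) and with 1 library left out (grey dashes). Each gene keeps its sign throughout, the values of GmNRT2 run from -4.26 to -0.85 with the added constant, and the NRT3.1-like gene passes the upper dotted line of a 2-fold difference only after rescaling.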

How the data were processed

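Libraries were made from poly(A)-enriched RNA, and whether counting used strand is not given in the sources used here. The authors removed adaptor and low-quality sequence, aligned reads with HISAT2 2.1.0 to Wm82.a2.v1 (index made with Bowtie2 2.2.3), estimated abundance with Cufflinks and deposited FPKM values per replicate. Fold changes and p-values of their own comparison were not used, but the members and lists were drawn from the genes it listed as differing. Only genes above 0 are listed, and a missing gene was taken as 0. Values were tested as log2(FPKM + 0.1) with limma 3.58.1 (R 4.3.3, statmod 1.5.0, moderated with a mean trend and robust settings), two-sided, with Benjamini-Hochberg adjustment over the 31181 genes at 0.5 FPKM or more in 3 or more libraries. Calls needed an adjusted p of 0.05 and an absolute log2 fold change of 1. Whole fragment numbers were recovered from the FPKM values alone, as the smallest numbers in the right ratio (relative tolerance 1e-06) that give a whole gene length (tolerance 0.001), so the true numbers could be a multiple of them. Intervals (95%) are exact binomial and cover counting error only. Figures and tables used matplotlib 3.10.9, scipy 1.17.1, pandas 2.3.3 and numpy 2.4.6 under Python 3.11.15. The code was tested on simulated data. Members and lists were chosen with earlier results of these data known.

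Named genes were the 7 members, in each list the 2 genes of highest level and the 2 called genes of largest fold in each direction, and the 3 genes most like GmNRT2 and the NRT3.1-like gene. Lists were drawn from descriptions in the part of the published list at hand, which ends within chromosome 18, as the reference table pairs no descriptions with these IDs. Neighbouring genes were added after the values were seen. Markers of uninfected cells, endodermis and green tissue could not be drawn, for lack of gene descriptions, and were not analysed here. Protein and promoter sequences and the closest paralogs were not analysed here. Nothing in the labels says that pools of a treatment came from separate cultures, so p-values measure the spread between these pools.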

Additional observations from a re-analysis of the deposited data

How the results depend on the processing

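All 7 members and the PTR1-like gene kept the sign of their fold change under every alternative run. Of 102 such values, 95 moved by less than the within-treatment SD, but most could not do otherwise. Another minimum or a replicate block leaves a fold as it is, and leaving out a single library cannot shift it by that SD. As the groups did not overlap, neither a left-out library nor another added constant could reverse a sign. The 7 values that moved did so with another added constant or median-of-ratios rescaling. With 1 added in place of 0.1, log2 fold changes were -0.85 for GmNRT2, 1.21 for AMT2-like, -0.50 for NRT1.5-like, -1.37 for the peptide/nitrate and 1.79 for the chromosome 5 PTR2-like gene. Leaving out 1 library at a time gave -3.24 to -2.55 for GmNRT2, 0.78 to 0.98 for NRT3.1-like, 1.43 to 2.08 for AMT2-like, -1.53 to -1.20 for NRT1.5-like, -1.89 to -1.62 for the peptide/nitrate gene, 2.14 to 2.40 for the chromosome 5 and 1.45 to 1.66 for the chromosome 8 PTR2-like gene. With any HP library left out, NRT1.5-like fell below the minimum and was fitted only without it. Of the members tested, 5 were called as reported, 4 with 1 added or a minimum of 1 FPKM, and 6 after either rescaling. Without LP replicate 1 or LP replicate 3, 5 were called. Without LP replicate 2 or any HP library, 4 were called. Only 5 members were tested with a minimum of 1 FPKM or without an HP library. The list of other transporter genes held the PTR1-like gene alone, so 1 of its genes was called as reported, 0 with 1 added, and 0 to 1 with single libraries left out.

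Over all genes, 1041 were called higher and 1370 lower at LP. Genes called lower numbered 602 with 1 added, 676 after median-of-ratios rescaling and 806 after quantile normalization, and the share of calls that were higher was 43.2% as reported, 55.5% with 1 added, 67.5% after median-of-ratios rescaling and 61.7% after quantile normalization. The cause was not tested. The labels tie same-numbered LP and HP libraries together by a number only (correlations of their deviations 0.17, -0.02 and -0.15). Whether such pools shared a culture or a batch is not given. With the replicate number as a block, 1046 genes were called higher, 1288 lower and 5 members were called. The comparison with closest paralogs was not run. GmNRT2 at LP rests on 4 fragments in all, which limits its fold.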

Other observations

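Genes of nitrate signalling and an early nodulin family, picked from the published list after their values were seen, are given here as values. The NLP2-like gene Glyma.14G001600, of the NIN-like family of nitrate-responsive transcription factors, had 85.8, 93.5 and 76.3 FPKM in the LP libraries, against 41.6, 52.3 and 35.1 FPKM in the HP libraries, a log2 fold change of 1.00 that lay just under the 2-fold threshold. The NLP7-like gene Glyma.16G182400 had 1.501, 0.954 and 1.12 FPKM in the LP libraries, against 0.641, 0.650 and 0.528 FPKM in the HP libraries, and was not called at a log2 fold change of 0.85. Relative to the median of all genes tested, the log2 fold change was 1.18 for the NLP2-like and 1.04 for the NLP7-like gene.

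Both genes described as early nodulin-70 were called lower at LP, as were 4.39% of all genes tested. Glyma.11G238500 had 12.3, 27.1 and 23.1 FPKM in the LP libraries, against 86.4, 62.2 and 104.1 FPKM in the HP libraries, and Glyma.18G018900 had 20.7, 46.9 and 40.5 FPKM in the LP libraries, against 113.2, 100.3 and 161.0 FPKM in the HP libraries. LP replicate 1 was the lowest LP library and HP replicate 2 the lowest HP library in both.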
